A study of Mus musculus with 6 samples.

Results

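The endoplasmic reticulum folding and degradation genes are 35 genes that fold, oxidise, inspect and remove proteins in the endoplasmic reticulum (ER), together with the sensors that watch over that work. They were taken from a list of gene symbols, and all 35 had 1 probe set each among the 25206 probe sets of the table. They divide by role into 4 sensors and transcription factors, 7 chaperones, 8 disulfide isomerases and oxidases, 11 degradation genes and 5 genes of protein entry and export. Expression was measured on 6 single-colour arrays of mouse bone marrow-derived macrophages, cells cultured from marrow precursors. In 3 samples the cells had received JG-98, an inhibitor of the Hsp70 chaperones, at 0.3 micromole for 16 hours, and 3 samples were controls with no treatment. The labels name no volume for that amount, no vehicle for the controls, and no strain, sex or age of the mice. The comparison asks how blocking Hsp70 alters macrophage gene expression.

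Proteins enter the ER unfolded through the Sec61 channel, and the luminal Hsp70 chaperone BiP, encoded by Hspa5, binds them together with lectin chaperones and disulfide isomerases. When unfolded protein accumulates, the membrane sensors IRE1 (Ern1), ATF6 and PERK start the unfolded protein response. IRE1 splices the Xbp1 transcript, ATF6 is cut to release a transcription factor, and PERK slows translation and raises ATF4. The first 2 of these branches induce chaperone and degradation genes through promoter sequences such as the ER stress element, while proteins that fail to fold are drawn back to the cytosol and degraded by the proteasome. An array of this kind gives 1 transcript level per gene, so it does not separate spliced from unspliced Xbp1 and does not show the cutting of ATF6.

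The promoters of these genes were searched for exact matches to response sequences. A gene without a match is not shown to lack the sequence. RefSeq promoter sequences (build GRCm38.p6) matched 30 of the 35 members, and the 250 bases before each annotated start were searched on both strands. Hyou1, Atf6, Manf, Derl1 and Ssr2 had no such sequence and were not searched. The ER stress element consists of CCAAT, 9 free bases and CCACG, with NF-Y known to bind the first part and ATF6 or XBP1 the last. It was found in 8 of the 30 (26.7%) and in 0.113% of all 32851 promoters of that length. ER stress element II, which is ATTGG and CCACG with 1 free base between them, stood in Herpud1 alone among the members and in 0.0304% of all promoters. The matches are shown because such sequences are the known link between the sensors and these genes, and a match is a description that shows no binding. Capitals mark the fixed letters, each is written in the direction of the motif, and Hsp90b1 holds a pair of them.
Calr (chr8:84847075-84847093, plus strand): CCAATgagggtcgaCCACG
Derl3 (chr10:75893242-75893260, minus strand): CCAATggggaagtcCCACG
Hsp90b1 (chr10:86705638-86705656, minus strand): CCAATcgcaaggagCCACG
Hsp90b1 (chr10:86705533-86705551, plus strand): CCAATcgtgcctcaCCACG
Canx (chr11:50325800-50325818, minus strand): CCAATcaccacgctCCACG
Pdia6 (chr12:17266491-17266509, plus strand): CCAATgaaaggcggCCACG
Ero1b (chr13:12565682-12565700, minus strand): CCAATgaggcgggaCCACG
Creld2 (chr15:88819520-88819538, minus strand): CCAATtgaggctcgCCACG
Syvn1 (chr19:6046532-6046550, plus strand): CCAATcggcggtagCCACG
Herpud1 (chr8:94386377-94386387, plus strand): ATTGGgCCACG
Of these elements, the one of Syvn1 was nearest to the start, at 26 to 44 bases before it, and the farther one of Hsp90b1 lay 194 to 212 bases before it. Among the holders of the first element, Pdia6 had the smallest p for the difference between the groups. Its upstream stretch is given below with the fixed letters of the element in capitals, 80 to 98 bases before the start.
Pdia6 (chr12:17266339-17266588, plus strand): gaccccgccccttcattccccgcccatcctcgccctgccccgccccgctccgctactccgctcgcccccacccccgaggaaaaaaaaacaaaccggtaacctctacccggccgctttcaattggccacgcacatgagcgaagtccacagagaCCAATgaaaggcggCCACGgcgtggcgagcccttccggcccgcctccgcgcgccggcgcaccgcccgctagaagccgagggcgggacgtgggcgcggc
The unfolded protein response element TGACGTGG was found in Txndc5, Txndc11 and Sec24d, 3 of the 30, and in 0.563% of all promoters. Neither the C/EBP-ATF composite element TGATGNAAT (0.816% of all promoters) nor the heat shock element, TTC, GAA and TTC with 2 free bases between the parts (0.466%), was found in any of the 30. No match overlapped another in the members, although CCACG ends both ER stress elements and, on the opposite strand, lies within the unfolded protein response element.

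**Figure D1:**
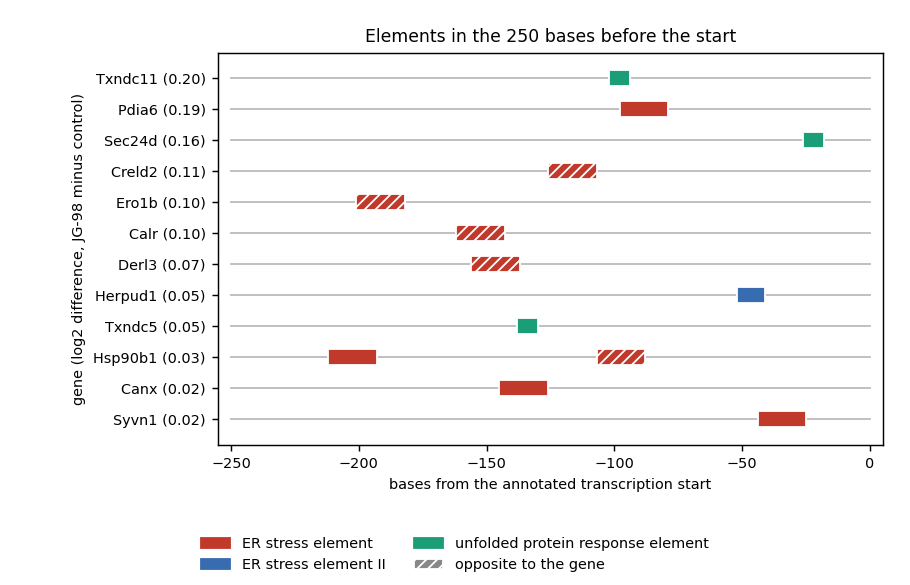
Position of each element found, in bases from the annotated transcription start (horizontal axis), for the 12 members that hold one, ordered by log2 difference (JG-98 minus control, in brackets). Hatched boxes run opposite to the gene, and the elements stand between 212 and 19 bases before the start.

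The median log2 value of an array ranged from 4.08 to 4.24. JG-98 replicate 3 stood apart from the other 5 arrays, with correlations of 0.992 to 0.993 across probe sets, and its values spread less (SD 2.39 over probe sets, against 2.46 and 2.47 on the other JG-98 arrays and 2.43 to 2.46 on the control arrays). The main counts are therefore also given without it. Of 7 macrophage markers measured, all had values from 8.27 to 12.13. Of 37 markers of 8 other cell types, 36 had values from 1.04 to 5.92, and the last was Tfrc, the transferrin receptor, which macrophages also express. The summed level of the macrophage markers was 71.3 to 71.7 on the JG-98 arrays and 71.8 to 72.1 on the control arrays. The erythroid sum, which includes Tfrc, was 18.7 to 18.9 on the JG-98 arrays and 17.9 to 18.4 on the control arrays. The other cell types' sums overlapped between the groups. In bulk RNA, fewer cells of a type and less RNA per cell cannot be told apart, and the part of these marker levels in the results was not tested.

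With JG-98, most of the 35 genes lay slightly above the controls and none passed the test over all genes. The median member differed by 0.09 on the log2 scale (JG-98 minus control), against 0.00080 over all probe sets and -0.01 over the 8064 probe sets with a mean above 6. The difference was above 0 in 31 of the 35 members, against 50.3% of all probe sets and 46.6% of those above 6. Hyou1 and Ern1 had the largest differences, and the other 33 members lay between -0.02 and 0.23. In limma, 0 of the 35 had an adjusted p under 0.05 (smallest adjusted p = 0.25), where 0.0397% of all probe sets did. At an unadjusted p under 0.05 there were 5, all higher, namely Hyou1, Ern1, Pdia6, Txndc11 and Erp44. That is 14.3% of the members, against 8.32% of all probe sets and 13.4% of those above 6, a share near that of other bright probe sets. Counting only probe sets that were higher, the shares were 3.84% over all and 5.75% above 6. Without JG-98 replicate 3 the unadjusted count was 8, against 11.3% of all probe sets, with 33 members above 0, a median of 0.11 and 0 members called. With an intensity trend in the variance model 3 members were called, Hyou1, Ern1 and Pdia6 (8.57% of the members, against 1.01% of all probe sets). With either filter on dim probe sets 2 were called, Hyou1 and Ern1. That is 5.88% of the members tested, against 0.714% of the probe sets, with a mean above the median of all means. It is 6.06%, against 4.77% of the probe sets, with a mean above 6, a share near the background.

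All 3 JG-98 values lay above all 3 control values in 13 members (37.1%), against 7.12% of all probe sets and 12.7% of those above 6. All lay below in 0 members, against 8.44% of all probe sets and 16.7% of those above 6. The margin was thin in several of the 13, at 0.0015 for Xbp1, 0.0037 for Calr and 0.0041 for Derl3 on the log2 scale, and it was 0.30 for Hyou1, 0.28 for Ern1 and 0.14 for Pdia6. After median centring of each array these last 3 alone kept separate groups, against 4.51% of all probe sets. Without JG-98 replicate 3 the count was 21, against 13.7% of all probe sets. The 8 added members were Atf6, Hsp90b1, Canx, Manf, P4hb, Pdia3, Ssr1 and Ssr3, whose first 2 JG-98 arrays lay above all controls while the last did not. On JG-98 replicates 1, 2 and 3 the median member deviated from the control mean by 0.091, 0.095 and 0.035. The median probe set above 6 deviated by 0.0067, 0.015 and -0.046 on the same arrays. Control replicate 1 had a median member at 0.034, about as high as JG-98 replicate 3.

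**Figure D2:**
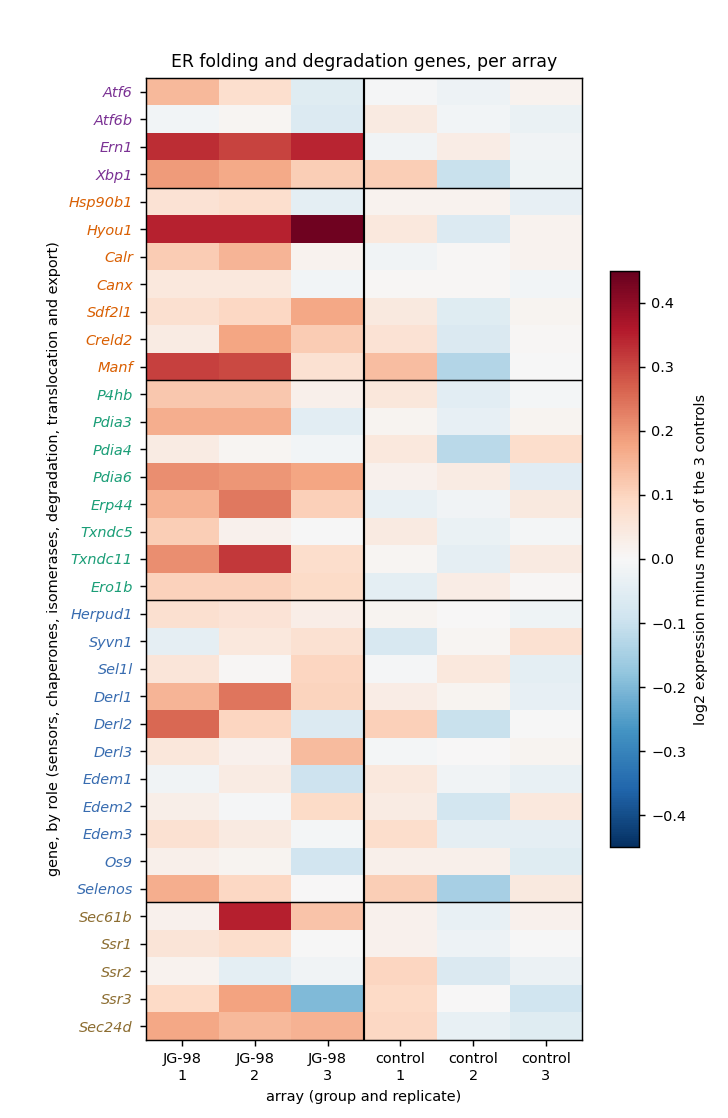
Log2 expression of each member (rows, grouped by role) on each array (columns, JG-98 left of control), minus the mean of the 3 controls. Ern1 and Hyou1 are dark red in all 3 JG-98 columns, Pdia6 is lighter red in all 3, and several members are red on JG-98 replicates 1 and 2 only.

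**Figure D3:**
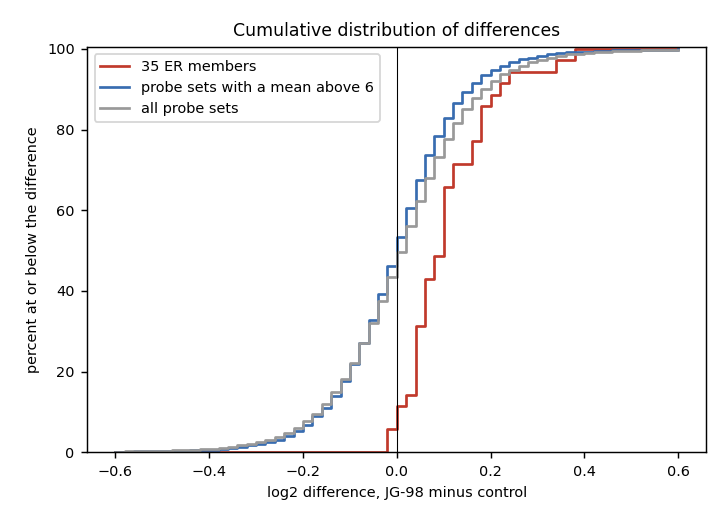
Percent of genes (vertical axis) with a log2 difference at or below the value on the horizontal axis, for the 35 members, for probe sets with a mean above 6 and for all probe sets. The members' curve lies to the right, with 11.4% of members at or below 0, against 53.4% of probe sets above 6 and 49.7% of all probe sets.

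Of the sensors and their factors, Ern1 had the highest difference. Ern1 encodes IRE1, the kinase and endonuclease that splices Xbp1. It had log2 values of 8.11, 8.08 and 8.12 with JG-98, against 7.76, 7.81 and 7.76 in controls. The groups were well apart, and the replicates of each lay within a narrow band. The difference was 0.33 ± 0.060 (SE, n = 3 per group), which is 1.26-fold, with a 95% interval of 0.18 to 0.47 (limma adjusted p = 0.26). Leaving out any 1 array kept it between 0.32 and 0.34.

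Xbp1 encodes the transcription factor that IRE1 activates. Its log2 values were 10.12, 10.10 and 10.04 with JG-98, against 10.04, 9.83 and 9.91 in controls. The lowest JG-98 array and the highest control array nearly met. The difference was 0.16 ± 0.077 (limma adjusted p = 0.67), and it ranged from 0.11 to 0.21 without any 1 array.

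Atf6 encodes the sensor that is itself cut into a transcription factor. It had 9.34, 9.27 and 9.14 with JG-98, against 9.19, 9.17 and 9.21 in controls. JG-98 replicates 1 and 2 lay above the controls and replicate 3 below them, and the difference was 0.06 with a 95% interval of -0.12 to 0.24 (0.01 to 0.12 without any 1 array). Atf6b, its close relative, had 8.18, 8.20 and 8.13 with JG-98, against 8.23, 8.18 and 8.16 in controls. These groups overlapped, at a difference of -0.02 (95% interval -0.17 to 0.13). The PERK gene Eif2ak3, not counted among the 35, had a difference of -0.01 ± 0.065.

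Among the chaperones, Hyou1 stood highest. It encodes the large Hsp70-related protein of the ER lumen (Grp170), which releases nucleotide from BiP. Its log2 values were 8.61, 8.61 and 8.70 with JG-98, against 8.31, 8.20 and 8.28 in controls. All JG-98 arrays were well above all controls. The difference was 0.38 ± 0.068 (SE, n = 3 per group), which is 1.30-fold, with a 95% interval of 0.22 to 0.54 (limma adjusted p = 0.25). Without any 1 array it stayed between 0.35 and 0.40.

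Manf is a small ER protein that stabilises BiP complexes and can be secreted. It had 7.66, 7.65 and 7.42 with JG-98, against 7.49, 7.22 and 7.35 in controls. JG-98 replicate 3 fell inside the range of the controls, and both groups had an SD of 0.14. The difference was 0.23 ± 0.10 (limma adjusted p = 0.64). Leaving out any 1 array gave 0.16 to 0.31, the lowest when control replicate 2 and the highest when JG-98 replicate 3 was left out. Sdf2l1, which works with BiP and its J-domain partner against aggregation, had 8.47, 8.49 and 8.57 with JG-98, against 8.44, 8.34 and 8.41 in controls. These groups stood apart by a small margin, at a difference of 0.12 ± 0.067.

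The other chaperones differed by no more than 0.11. Creld2, a calcium-binding ER stress protein, averaged 7.87 ± 0.069 with JG-98 and 7.76 ± 0.066 in controls (SD, n = 3 each), with overlap. Calr, the luminal lectin chaperone calreticulin, averaged 11.18 ± 0.072 with JG-98 and 11.09 ± 0.015 in controls. Its membrane-bound counterpart Canx, calnexin, differed by 0.02 ± 0.060. Hsp90b1, the ER Hsp90 (Grp94), differed by 0.03 ± 0.068 with a 95% interval of -0.13 to 0.19. The BiP gene Hspa5, not among the 35, had 11.08, 11.09 and 11.18 with JG-98, against 10.97, 10.93 and 11.00 in controls. Its groups did not overlap, at 0.15 ± 0.065 (limma adjusted p = 0.62).

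**Figure D4:**
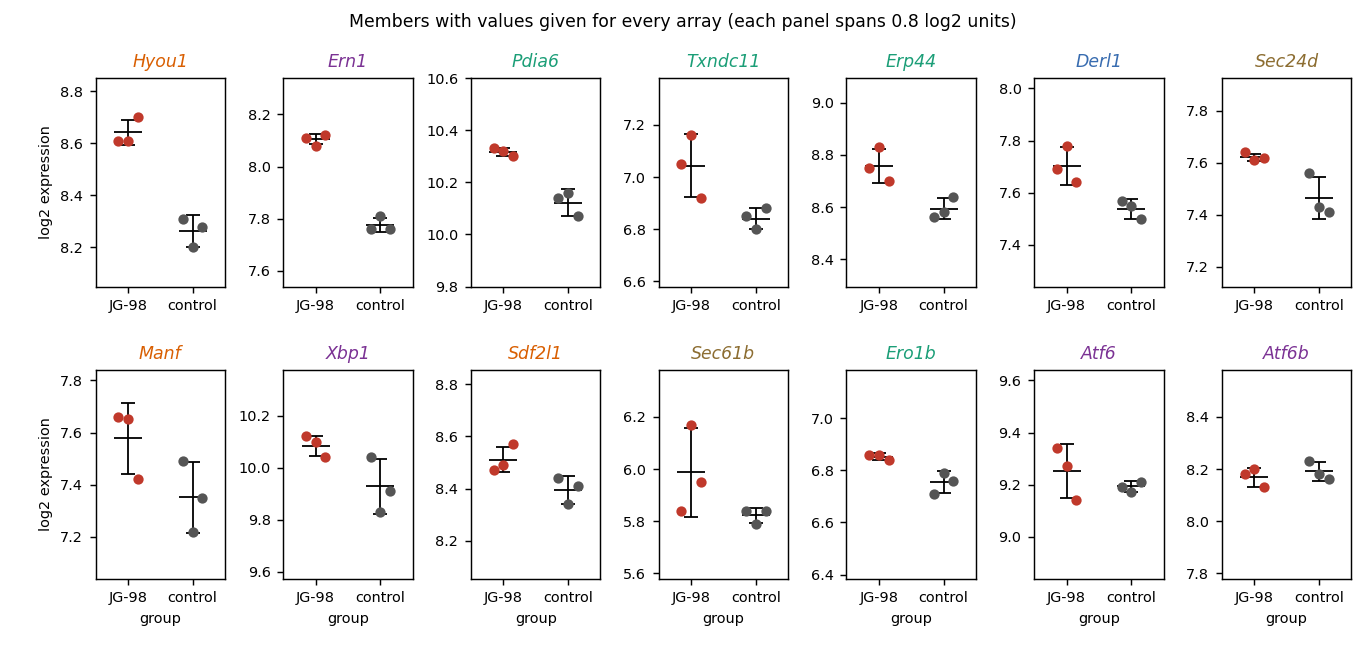
Log2 expression on each array (points) of the 14 members whose values are given in full, with the mean and SD of each group (bars) and titles coloured by role. Ern1, Hyou1 and Pdia6 show clear gaps between the groups, and Atf6, Atf6b, Manf and Sec61b overlap.

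All 8 isomerases and oxidases had a difference above 0, against 50.3% of all probe sets. In 3 of them (37.5%), all higher, the unadjusted p was under 0.05. That share was 8.32% of all probe sets and 13.4% of those above 6, or 3.84% and 5.75% counting only higher ones. Pdia6, a disulfide isomerase that associates with BiP and carries an ER stress element as printed above, had 10.33, 10.32 and 10.30 with JG-98, against 10.14, 10.16 and 10.07 in controls. The JG-98 values were close together and all above the controls, at a difference of 0.19 ± 0.063 (limma adjusted p = 0.50). Txndc11, a thioredoxin-domain protein of the ER membrane, had 7.05, 7.16 and 6.92 with JG-98, against 6.85, 6.80 and 6.88 in controls. Its groups did not overlap, but JG-98 replicate 3 was close to the highest control, and the difference was 0.20 ± 0.082. Erp44, which holds ER oxidases back in the early secretory pathway, had 8.75, 8.83 and 8.70 with JG-98, against 8.56, 8.58 and 8.64 in controls. These were also apart, at 0.16 ± 0.068.

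Ero1b encodes an oxidase that recharges the disulfide isomerases. It had 6.86, 6.86 and 6.84 with JG-98, against 6.71, 6.79 and 6.76 in controls. The JG-98 arrays agreed closely and lay above the controls, at a difference of 0.10 ± 0.061 (limma adjusted p = 0.74). Its paralog Ero1a, not among the 35, had 8.83, 8.81 and 8.83 with JG-98, against 8.32, 8.28 and 8.31 in controls. The difference of Ero1a was 0.52 ± 0.059 (limma adjusted p = 0.12), and its 95% interval of 0.38 to 0.66 lay above that of Ero1b, -0.05 to 0.24. Ero1a passed with an intensity trend (limma adjusted p = 0.00069), with a mean above the median (0.013), with a mean above 6 (0.0019) and with array weights (0.040), and not in the other settings (0.084 to 0.60). The difference between these 2 paralogs was not itself tested. P4hb, the classical disulfide isomerase, differed by 0.09 ± 0.068, and Pdia3, the isomerase that serves glycoproteins, by 0.10 ± 0.081 (0.06 to 0.17 without any 1 array). The thioredoxin-like isomerase Txndc5 differed by 0.05 ± 0.067. Pdia4 was at 0.01 ± 0.077, and at -0.05 without control replicate 2. Each of these last 4 had groups that overlapped.

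The median difference of the 11 degradation genes was 0.05. None had an unadjusted p under 0.05, where 8.32% of all probe sets and 13.4% of those above 6 did. Derl1, a membrane protein of the channel through which misfolded proteins leave the ER, came nearest. It had 7.69, 7.78 and 7.64 with JG-98, against 7.57, 7.55 and 7.50 in controls. The groups did not overlap, and the difference was 0.16 ± 0.069 (limma adjusted p = 0.61). Its relative Derl2 averaged 8.49 ± 0.16 with JG-98 and 8.39 ± 0.10 in controls (SD, n = 3 each), with overlap, and its difference ranged from 0.02 to 0.17 without any 1 array. Derl3 averaged 4.08 ± 0.063 with JG-98 and 4.01 ± 0.012 in controls, separate by a thin margin and near the median of the arrays, where background is not excluded.

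Herpud1, which assembles the ubiquitin ligase complex of this pathway and carries ER stress element II, had separate groups at small distance. Its mean was 8.06 ± 0.017 with JG-98 and 8.01 ± 0.016 in controls (SD, n = 3 each), a difference of 0.05 ± 0.059 (SE). Syvn1, the ubiquitin ligase HRD1 itself, differed by 0.02 ± 0.071, and its adaptor Sel1l by 0.05 ± 0.066. The mannosidase-like genes Edem1, Edem2 and Edem3, whose products mark glycoproteins for removal, were at -0.02, 0.04 and 0.03. The lectin gene Os9, which passes such glycoproteins to the ligase, was at -0.02, and Selenos, a selenoprotein that recruits the extraction machinery, at 0.09 (0.01 to 0.14 without any 1 array). All of these except Herpud1 had overlapping groups. The upper ends of the 95% intervals of Edem1, Edem2, Edem3, Os9, Syvn1 and Sel1l lay between 0.14 and 0.21.

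**Figure D5:**
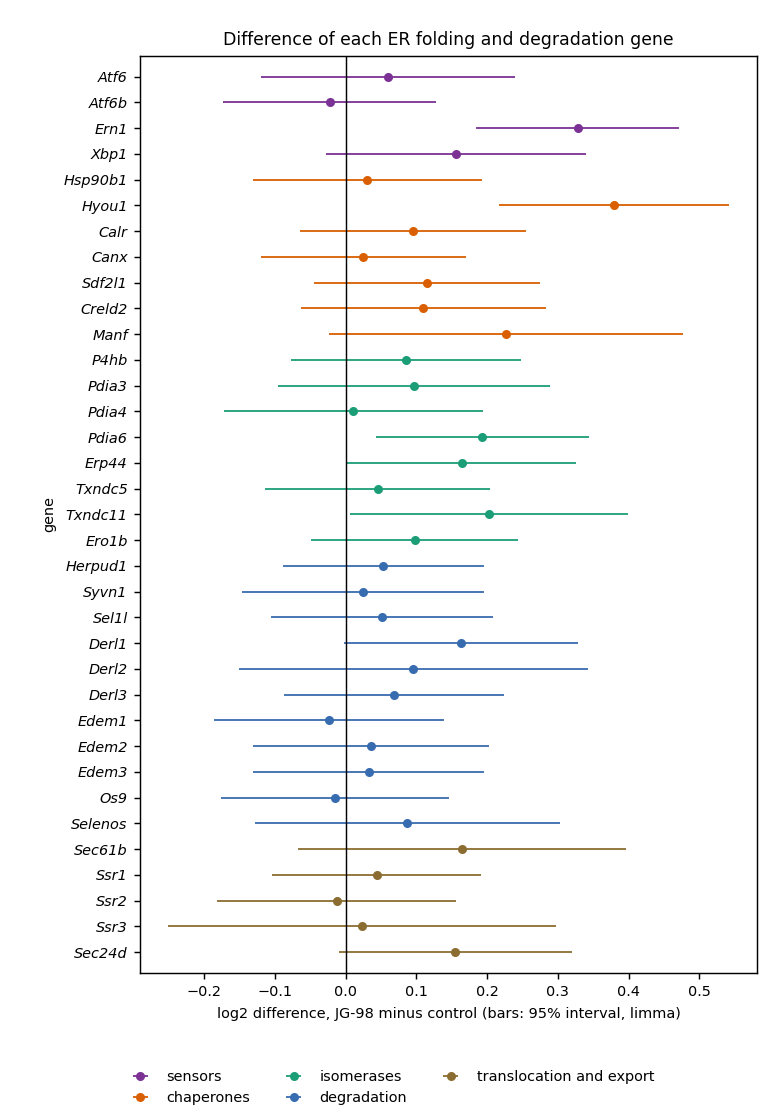
Log2 difference (JG-98 minus control, horizontal axis) of each member with its 95% interval from limma, not adjusted for the number of genes, coloured by role. The intervals of Ern1, Hyou1, Pdia6, Erp44 and Txndc11 lie above 0, and those of the degradation genes all include it.

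Among the genes of entry and export, Sec24d was the 1 of 5 whose groups did not overlap. It encodes a coat subunit that selects cargo for vesicles leaving the ER. It had 7.64, 7.61 and 7.62 with JG-98, against 7.56, 7.43 and 7.41 in controls, a difference of 0.16 ± 0.069 (limma adjusted p = 0.63). Sec61b, a small subunit of the entry channel, had 5.84, 6.17 and 5.95 with JG-98, against 5.84, 5.79 and 5.84 in controls. JG-98 replicate 2 was the highest of the 6 arrays, and the difference of 0.16 ± 0.097 was 0.07 without it and 0.24 without JG-98 replicate 1. The translocon-associated genes Ssr1, Ssr2 and Ssr3 differed by 0.04, -0.01 and 0.02. Ssr3 was the most variable member with JG-98 (SD 0.20, n = 3), with JG-98 replicate 3 the lowest of the 6 arrays.

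By role, the median differences were 0.11 for sensors, 0.11 for chaperones, 0.10 for isomerases, 0.05 for degradation genes and 0.04 for entry and export. Separate groups, always with JG-98 higher, were seen in 2 of 4 sensors, 3 of 7 chaperones, 4 of 8 isomerases, 3 of 11 degradation genes and 1 of 5 entry and export genes. Over all probe sets that share was 7.12%, and it was 12.7% of those above 6. After median centring only Ern1, Hyou1 and Pdia6 kept separate groups. Differences between the roles were not tested. The 8 holders of an ER stress element had a median difference of 0.08 (range 0.02 to 0.19), against 0.07 in the 22 other members with a promoter sequence. Those 22 included Herpud1, which holds ER stress element II, and Txndc5, Txndc11 and Sec24d, which hold the unfolded protein response element. Left out were Hyou1 (0.38), Manf (0.23), Derl1 (0.16), Atf6 (0.06) and Ssr2 (-0.01), which had no sequence. The groups were separate in 4 of the 8 and in 7 of the 22.

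The wider pathway was followed in 74 other genes of ER folding, glycosylation, degradation, transport and the PERK branch. Of these, 1 rose over all genes in limma, the pseudokinase gene Trib3, and 0 fell, where 0.0397% of all probe sets were called. At an unadjusted p under 0.05 there were 12, all higher (16.2%), against 8.32% of all probe sets and 13.4% of those above 6 in either direction. Counting only higher probe sets, the shares were 3.84% and 5.75%. Of the 6 genes listed as the PERK branch, 5 were among these 12. The PERK gene Eif2ak3 was not, at -0.01 ± 0.065, and whether PERK drove the others was not tested. Trib3 had 6.93, 6.95 and 6.75 with JG-98, against 5.25, 5.32 and 5.33 in controls, a difference of 1.58 ± 0.079 (limma adjusted p = 0.0094). That call was lost without any 1 array other than JG-98 replicate 3 (differences of 1.54 to 1.59, limma adjusted p from 0.084 to 0.15) and under the replicate block (0.22). The transcription factor gene Ddit3 (CHOP) differed by 0.84 ± 0.16, the glutathione-degrading enzyme gene Chac1 by 0.77 ± 0.16, the phosphatase subunit gene Ppp1r15a by 0.50 ± 0.098 and Atf4 by 0.44 ± 0.088, and these did not pass (limma adjusted p = 0.28, 0.31, 0.29 and 0.29). With an intensity trend and with a mean above 6, Ddit3 passed at adjusted p = 0.032 and 0.026, and Atf4 at 0.025 and 0.023. Each of these 5 differed by more than any of the 35 members, whose highest value was 0.38. Outside the PERK branch, 7 of 68 genes had an unadjusted p under 0.05, with a median difference of 0.02. Their share of 10.3% lay between the 8.32% of all probe sets and the 13.4% of those above 6, in either direction. All 7 were higher, against shares of 3.84% and 5.75% counting only higher probe sets.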

How the data were processed

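The authors deposited a table of log2 expression, with a value for each probe set on each array. Per the submitters' processing notes, RMA, affy and R 2.15.1 were used, in roles those notes do not give. A build for the arrays is not given in those notes. RMA as generally defined normalizes arrays against each other, which removes shifts common to all genes, and compresses differences of dim probe sets. Probe sets carry Entrez numbers. The platform annotation named 23185 of 25206, and symbols were updated through a RefSeq table (GRCm38.p6). Groups came from the labels. Differences were fitted with limma 3.58.1 in R 4.3.3 (lmFit, eBayes, two-sided, no covariate) and adjusted by Benjamini-Hochberg over all 25206 probe sets at 0.05. The fit was tested on simulated data. Whether replicates were separate animals or cultures is not in the labels. The p-values therefore reflect the spread among these samples alone, and it may be technical. The number of arrays limits the precision.

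The members and lists were chosen with earlier results of these data known. Values in every sample are given for the 4 sensors and the 12 members with the smallest unadjusted p, 14 in all. Of the other pathway genes, Hspa5 and the 6 with the smallest p are named, and any further one was chosen after its values were seen. Of 75 such genes listed, 74 were analysed, as were 44 of 47 cell type markers. The other settings were median centring, a further quantile normalization, a filter on the mean (above the median of all means, or above 6), an intensity trend, a robust prior, array weights (statmod 1.5.0), the replicate number as a block, and leaving out each array in turn. Same-numbered arrays deviated together with correlations of 0.095, -0.13 and 0.10, so the numbers were not taken as pairs.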

Additional observations from a re-analysis of the deposited data

How the results depend on the processing

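Of the 35 members, 28 kept the sign of their difference in all 14 other settings that measured them. The 7 that turned in some setting had differences near 0. Pdia4 was at -0.0087 after median centring, and with array weights Syvn1 was at -0.017, Os9 at 0.015 and Ssr2 at 0.0050. Leaving out 1 array gave ranges of -0.050 to 0.050 for Pdia4, -0.056 to 0.14 for Ssr3, -0.045 to 0.035 for Ssr2, -0.053 to 0.010 for Edem1, -0.041 to 0.019 for Os9, -0.010 to 0.060 for Syvn1 and -0.0053 to 0.057 for Edem2. The median difference of members was 0.066 after median centring and 0.060 to 0.11 without 1 array. Members called numbered 0 in limma, 2 with either filter on the mean (5.88% against 0.714% of probe sets above the median, and 6.06% against 4.77% above 6), 3 with an intensity trend (8.57% against 1.01%), and 0 without any 1 array. Without 1 array, the difference of 20 members moved by over 1.5 times or turned. Pdia6, called with the trend, had adjusted p-values from 0.037 to 0.87 over all settings, Ern1 from 0.0098 to 0.75 and Hyou1 from 0.010 to 0.76. Probe sets called numbered 10, but 90 with a mean above the median, 385 with a mean above 6, 254 with a trend, 25 with array weights and 0 to 5 without 1 array, with 5 only without JG-98 replicate 3. The replicate block called 0 probe sets and 0 members (smallest adjusted p = 0.22 over all probe sets). Under it 3 of the 35 members had an unadjusted p under 0.05, where 7.36% of all probe sets did, a share near the background. Members above all controls numbered 3 after median centring and 13 to 21 without 1 array, with 19 without control replicate 1 and 21 without JG-98 replicate 3. The share of all probe sets above all controls also rose when 1 array was left out. It was 7.12% with all arrays, 4.51% after median centring and 11.2% to 13.7% without 1 array. Without control replicate 1 it was 11.3%, and without JG-98 replicate 3 it was 13.7%. Members below all controls numbered 0 to 1, namely Pdia4 without control replicate 2 and Os9 without control replicate 3. The cause of these shifts was not tested. Dim probe sets such as Derl3 cannot be told from background.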

Other observations

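Outside the PERK branch and the 35 members, 7 genes of the wider pathway had an unadjusted p under 0.05, all higher with JG-98. That is 10.3%, against 3.84% of all probe sets and 5.75% of those above 6 counting only higher ones. In either direction these shares were 8.32% and 13.4%. None of the 7 passed the limma test over all genes. Ero1a did in 4 other settings, and Sec63 did among probe sets with a mean above 6 (limma adjusted p = 0.036). Besides Ero1a, the 7 were chosen here after their values were seen. Sec63, the J-domain protein that couples BiP to the entry channel, had 8.33, 8.30 and 8.29 with JG-98, against 8.04, 8.08 and 8.13 in controls, a difference of 0.22 ± 0.062 (limma adjusted p = 0.43). Dnajc1, another J-domain partner of BiP, differed by 0.19 ± 0.064. Lman1, a lectin that carries glycoproteins out of the ER, had 9.30, 9.39 and 9.38 with JG-98, against 9.15, 9.13 and 9.19 in controls, a difference of 0.20 ± 0.064. Ssr4, the remaining translocon-associated subunit gene, differed by 0.18 ± 0.064, Ostc of the oligosaccharyltransferase by 0.23 ± 0.086 and the isomerase gene Pdia5 by 0.26 ± 0.061, the last at means of 4.40 with JG-98 and 4.15 in controls where background is not excluded. In all of these the groups did not overlap.

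The list of other degradation factors had a median difference of 0.03. Of its 13 genes, 0 had an unadjusted p under 0.05, where 8.32% of all probe sets and 13.4% of those above 6 did. Of the 13 genes of glycan handling and oligosaccharyl transfer, 1 had such a p (Ostc), and their median difference was 0.02. The 6 processing proteases and related factors, among them the site-1 and site-2 proteases that cut ATF6 (Mbtps1 and Mbtps2), had 0, at a median of -0.05. Groups were separate with JG-98 higher in 18 of the 74 genes (24.3%), against 7.12% of all probe sets and 12.7% of those above 6. Without the PERK branch the count was 13 of 68 (19.1%). Groups were separate with JG-98 lower in 3 of the 74 (4.05%), against 8.44% and 16.7%, named here for that reason. These were the peroxiredoxin gene Prdx4 at -0.33 ± 0.19, the sulfhydryl oxidase gene Qsox1 at -0.13 ± 0.066 and the translocation factor gene Sec62 at -0.08 ± 0.064, with limma adjusted p-values of 0.72, 0.69 and 0.80. For Prdx4, JG-98 replicate 3 had 6.93 and the other JG-98 arrays 7.61 and 7.59, against 7.77, 7.71 and 7.62 in controls.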
